A study of Mus musculus with 208 samples.

Results

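The circadian clock genes described here were 10 mouse genes, taken by symbol from the rows of the deposited count and FPKM tables. They were Per1, Per2 and Per3, which encode the period proteins, Cry1 and Cry2, which encode cryptochromes, Clock, Nr1d1 and Nr1d2, which encode the nuclear receptors REV-ERBα and REV-ERBβ, and the transcription factor genes Dbp and Tef. Each symbol matched 1 of 39179 gene identifiers, and all 10 passed the filter on low counts at each of the 3 ages. Polyadenylated RNA of the striatum had been sequenced in 26 groups of 8 libraries. Heterozygous Huntington's disease knock-in mice of the C57BL/6 strain made up 18 of these groups, with repeat labels of Q175, Q140, Q111, Q92, Q80 and Q20 at 2, 6 and 10 months of age. The other 8 groups were wild-type mice. At 2 and 10 months 1 wild-type group was available, taken as that of Q20 because its library names carry Q20 codes. At 6 months each of the 6 lines had wild types labelled as housed with it. The Q20 line, with the shortest repeat label, served as the comparison for the other 5. Groups held 4 females and 4 males, apart from Q20 at 10 months (5 females, 3 males) and Q80 at 2 months (3 females, 5 males). The hour of tissue collection is not in the labels, so no library can be placed at a time of day.

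In the mammalian clock, CLOCK pairs with BMAL1 (Arntl) and switches on genes through E-box elements, among them the Per, Cry, Nr1d and Dbp genes. PER and CRY proteins accumulate, enter the nucleus and repress CLOCK–BMAL1, which closes the loop, while REV-ERB proteins repress Arntl and so tie a further loop to the first. DBP and TEF, together with HLF, belong to the PAR bZIP family and carry the rhythm to output genes through D-box elements, at which NFIL3 opposes them. In tissues outside the suprachiasmatic nucleus, Per1 and Per2 also respond acutely to glucocorticoid hormone and to neuronal activity, so the level of these transcripts in the striatum depends on the hour and the recent state of the animal.

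The clock elements that these genes share can be read in the RefSeq promoter windows of the GRCm38.p6 assembly, which run from 250 bases before to 50 bases after an annotated start site. Windows were available for 9 of the 10 genes, 13 windows in all, with no entry for Per2. The E-box CACGTG, searched on both strands, was present in windows of Per1, Cry1 and Tef, against 7.15% of 32851 windows of the same length. The variant E-box CACGTT was present in windows of Cry1, Cry2 and Nr1d1, against 4.68% of all windows, and the D-box TTATGTAA in the window of Per3, against 0.938%. The windows of Dbp, Nr1d2 and Clock held none of these letters. The 250 bases before the start site are shown for 4 genes, 5′ to 3′ on the strand of the gene and with the matched elements in capitals, because these genes hold either of the elements through which CLOCK or the PAR bZIP proteins act.
Per1, chr11:69098699-69098948, plus strand, E-box at -166: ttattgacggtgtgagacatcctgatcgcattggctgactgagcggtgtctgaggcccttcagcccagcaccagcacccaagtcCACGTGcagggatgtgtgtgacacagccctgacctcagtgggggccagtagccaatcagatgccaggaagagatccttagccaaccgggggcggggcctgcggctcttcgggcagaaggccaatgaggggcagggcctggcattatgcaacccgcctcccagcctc
Cry1, chr10:85185055-85185304, minus strand, variant E-box at -79 (read on the other strand) and E-box at -60: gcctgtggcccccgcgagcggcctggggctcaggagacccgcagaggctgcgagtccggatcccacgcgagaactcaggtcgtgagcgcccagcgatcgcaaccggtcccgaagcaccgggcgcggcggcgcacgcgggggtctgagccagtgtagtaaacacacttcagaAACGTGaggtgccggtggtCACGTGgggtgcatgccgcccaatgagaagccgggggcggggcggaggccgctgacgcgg
Per3, chr4:151044666-151044915, minus strand, D-boxes at -205 and -158: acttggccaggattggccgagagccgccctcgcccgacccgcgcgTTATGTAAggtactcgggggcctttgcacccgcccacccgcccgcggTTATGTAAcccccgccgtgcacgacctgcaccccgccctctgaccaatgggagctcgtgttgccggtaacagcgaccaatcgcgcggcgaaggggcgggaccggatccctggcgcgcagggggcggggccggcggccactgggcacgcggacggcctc
Tef, chr15:81811164-81811413, plus strand, E-box at -138: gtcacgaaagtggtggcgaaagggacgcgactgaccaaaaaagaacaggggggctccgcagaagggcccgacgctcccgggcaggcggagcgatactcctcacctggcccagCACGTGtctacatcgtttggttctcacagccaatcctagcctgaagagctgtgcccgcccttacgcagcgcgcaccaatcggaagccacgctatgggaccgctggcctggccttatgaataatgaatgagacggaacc
A match of letters describes the window and is no evidence of binding in these samples.

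All libraries carried enough reads for these genes to be measured well. Library totals ran from 29.1 M to 49.6 M counts, with a median of 31.9 M counts at 2 months, 41.0 M counts at 6 months and 33.0 M counts at 10 months. The least abundant member, Cry1, had 491 to 1304 counts in a library and the most abundant, Tef, 11290 to 26484. At 2 months 5 libraries correlated less well with the rest (median r of 0.901 to 0.949): Q20 males 2 and 3, Q80 male 5, and Q92 males 3 and 4. No library of the other ages had a median r under 0.978. In those 5 libraries Clock lay between 32.9 and 40.9 CPM, against 46.6 to 92.9 CPM in the other 51, so the ranges did not overlap. Tef likewise lay between 348.6 and 412.9 CPM against 427.9 to 582.6 CPM, and Cry2 between 119.1 and 128.2 CPM against 134.1 to 169.3 CPM, while Dbp was high, at 168.3 to 247.8 CPM against 77.3 to 188.8 CPM. Most comparisons between groups or sexes at 2 months, and some correlations, are therefore given with and without these 5 libraries. Markers of medium spiny neurons, the main neuron type of the striatum, were present at high level in both groups compared further on. The transcript models of Nr1d1, Dbp, Cry2, Tef, Per3 and Clock overlap those of a neighbouring gene (Thra, Sphk2, D930015M05Rik, Gm17597, Camta1 and Ube2n-ps1, for example), and since the strand used in counting is not stated their counts could include reads of these neighbours.

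On the length-scaled FPKM scale, which allows levels of different genes to be set side by side, the output factors stood at the top and the members with the smallest values were Cry1, Clock and Per2. At 6 months Tef averaged 138.6 ± 14.97 FPKM and Dbp 86.3 ± 16.6 FPKM (SD, n = 96 libraries). Nr1d1 followed at 45.7 ± 5.53 FPKM, Cry2 at 43.2 ± 2.30 FPKM, Per1 at 36.0 ± 8.13 FPKM and Nr1d2 at 32.0 ± 2.86 FPKM. Neighbours among these last 4 differed by less than 1 SD of the more variable gene. Per3 came next at 14.95 ± 2.31 FPKM, then Per2 at 11.9 ± 3.98 FPKM, Clock at 9.99 ± 0.571 FPKM and Cry1 at 7.54 ± 1.13 FPKM. Per2 and Clock were again closer than the SD of Per2. Tef and Dbp also led at 2 months (134.0 ± 21.7 and 92.8 ± 27.4 FPKM, n = 56) and at 10 months (118.0 ± 13.6 and 68.0 ± 14.1 FPKM, n = 56). The middle of the order moved with age, with Nr1d2 the third highest at 10 months, at 37.6 ± 2.99 FPKM, ahead of Cry2 at 34.6 ± 2.11 and Nr1d1 at 33.7 ± 4.63 FPKM.

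In the wild types of the Q20 cohort, CPM, the counts scaled to library size, gave each gene's level at the 3 ages. Per1 averaged 127.3 ± 34.3 CPM at 2 months, 172.0 ± 29.8 CPM at 6 months and 120.9 ± 18.2 CPM at 10 months (SD, n = 8 each). Nr1d1 had its highest mean at 6 months too, at 102.8 ± 10.1, 133.2 ± 12.5 and 106.5 ± 7.36 CPM at 2, 6 and 10 months. Nr1d2, its close relative, did not share that order and averaged 147.1 ± 9.05, 144.5 ± 10.6 and 182.1 ± 10.8 CPM. Clock was the flattest, at 73.4 ± 14.1, 74.2 ± 4.99 and 76.0 ± 8.41 CPM. Library names carry different codes at the 3 ages, so age and whatever the codes stand for cannot be told apart in these levels, and levels were not tested between ages.

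**Figure D1:**
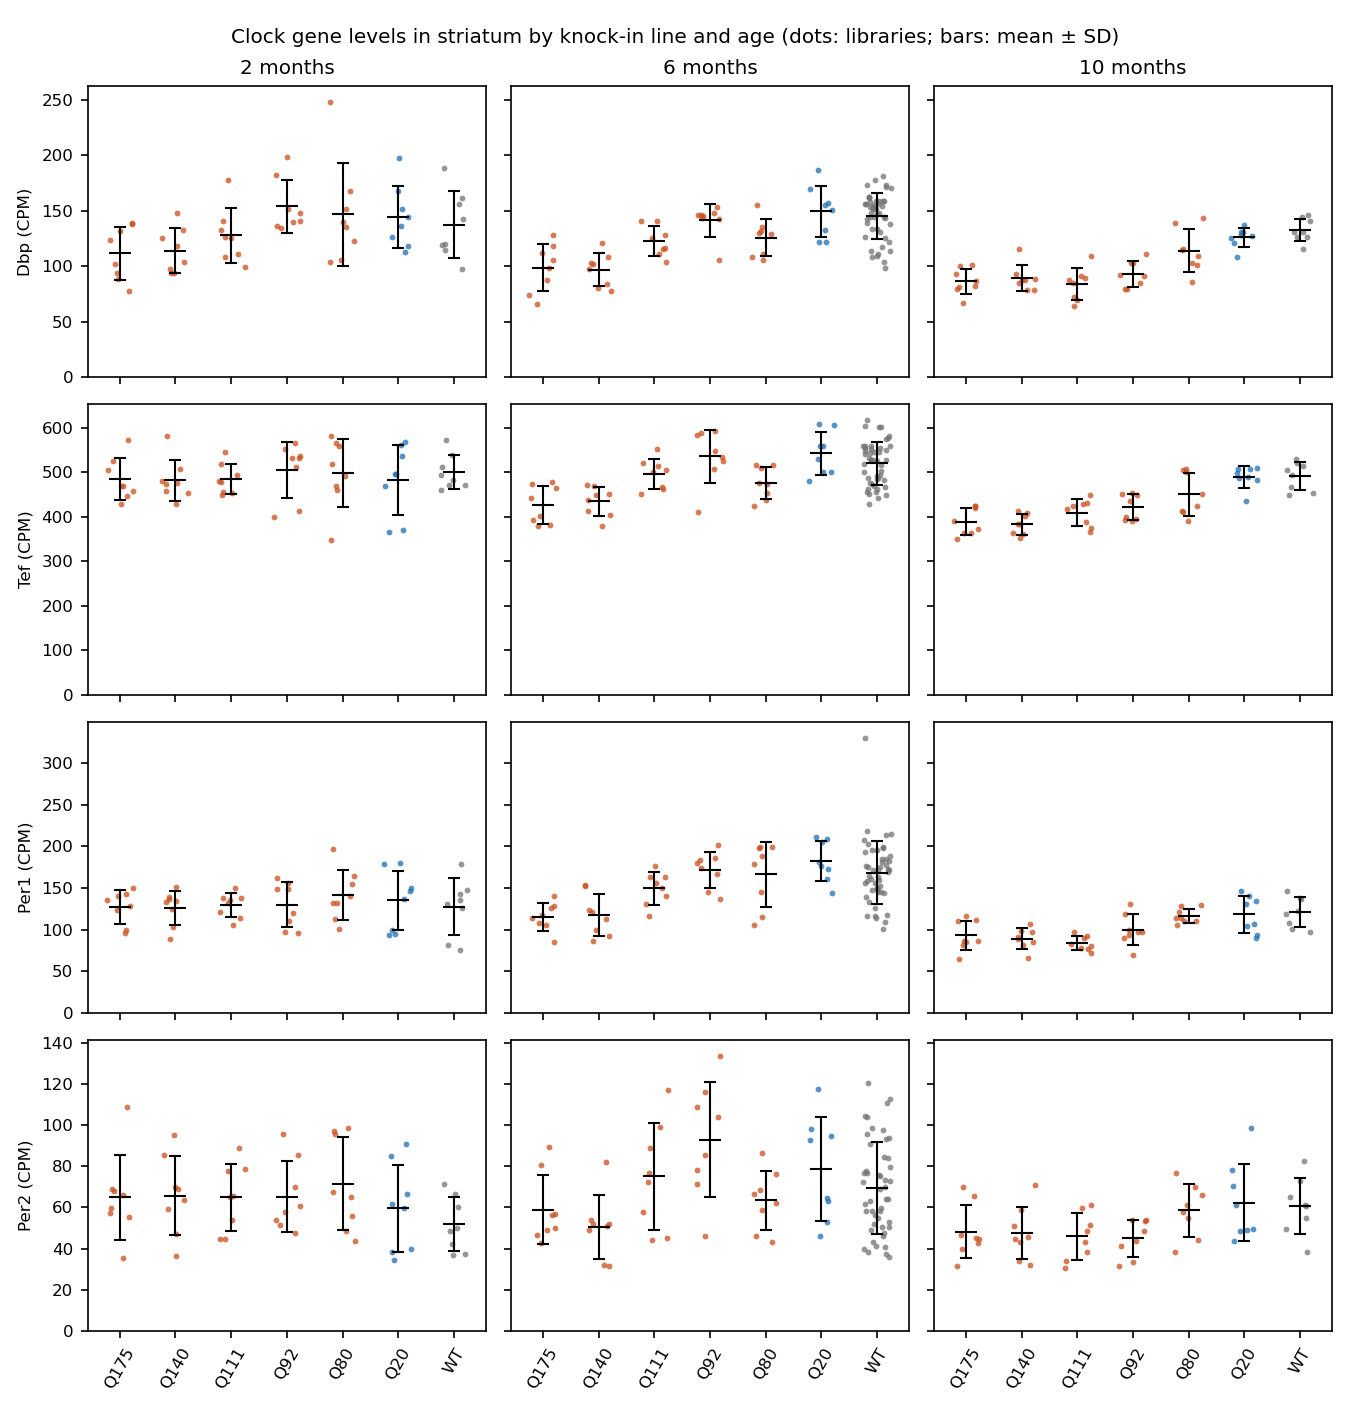
CPM of Dbp, Tef, Per1 and Per2 in every library at 2, 6 and 10 months. Columns run from Q175 to Q20 and then wild types (at 6 months all 48 wild types together), dots are libraries, and bars give the mean and SD. At 6 months Dbp in Q175 lies between 65.9 and 128.1 CPM and in Q20 between 121.7 and 187.1 CPM, whereas Per2 is widely spread in every group.

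At 6 months Dbp, Tef, Nr1d1, Nr1d2, Per1, Per3 and Cry2 were lower in Q175 than in Q20. Between Q175 and Q20, 7 of the 10 members fell and none rose, among a background of 18.2% of all 17642 tested genes that fell (edgeR quasi-likelihood test, adjusted p below 0.05, as for all calls). The median log2 change over the members was -0.34, against 0.01 over all genes. Members that were not called were Per2, Clock and Cry1.

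Dbp, the D-box activator and a direct CLOCK target, had 65.9, 102.1 and 128.1 CPM (lowest, median and highest of 8 libraries) in Q175, against 121.7, 153.0 and 187.1 CPM in Q20. Of the 8 Q175 libraries, 7 lay below the lowest of Q20, and the log2 difference was -0.61 (SE 0.074, adjusted p = 7.89e-11). Tef, its relative, had 380.6, 421.4 and 478.7 CPM in Q175, against 480.5, 544.9 and 608.1 CPM in Q20. All 8 Q175 libraries were below all 8 Q20 libraries for Tef, with a log2 difference of -0.35 (SE 0.0399, adjusted p = 6.85e-12). Nr1d1 showed the same separation, with 76.5, 97.3 and 107.3 CPM in Q175 against 110.1, 123.4 and 154.5 CPM in Q20 (log2 difference -0.44, SE 0.0559, adjusted p = 3.95e-10).

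Of all genes 36.2% were called in this comparison in either direction, and the share of genes without overlap is not given here. Per1, like Tef and Nr1d1, did not overlap, at 84.7, 115.3 and 140.4 CPM in Q175 against 144.2, 178.6 and 210.6 CPM in Q20. Its log2 difference of -0.66 was the largest of the 10, with the largest error among the called members (SE 0.143, adjusted p = 0.000107). Per3 had 49.5, 64.3 and 78.7 CPM in Q175 against 65.5, 85.8 and 94.3 CPM in Q20, and 4 of 8 Q175 libraries lay below the lowest of Q20. The difference was -0.34 on the log2 scale (SE 0.0508, adjusted p = 5.49e-08). Per2 behaved differently from Per1 in its spread, with 42.6, 53.1 and 89.4 CPM in Q175 against 45.9, 78.7 and 117.6 CPM in Q20. Its log2 difference of -0.44 carried an SE of 0.211 and did not pass (adjusted p = 0.0992).

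Cry2 had 138.9, 150.3 and 170.7 CPM in Q175 against 162.3, 170.9 and 183.1 CPM in Q20, a small but called fall (log2 difference -0.17, SE 0.0329, adjusted p = 1.48e-05). Cry1, the other cryptochrome, had 19.6, 23.2 and 26.3 CPM in Q175 against 18.4, 23.2 and 28.9 CPM in Q20, so its medians were equal. Nr1d2 passed narrowly (log2 difference -0.11, SE 0.0438, adjusted p = 0.0328). That call was kept in 11 of 16 fits that left out 1 library and was lost without Q175 male 1 or 3, Q20 female 3 or 4, or Q20 male 3 (largest adjusted p = 0.112). Clock, the activator itself, had 67.1, 77.6 and 83.1 CPM in Q175 against 71.2, 73.4 and 80.1 CPM in Q20 and a log2 difference of 0.02 (SE 0.0284, adjusted p = 0.672).

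Q140 gave a like pattern against the same Q20 libraries, with 8 members lower, among 14.1% of all genes. Dbp had a log2 difference of -0.63 (SE 0.0742, adjusted p = 4.88e-11) with 8 of 8 libraries below all of Q20 (77.8 to 120.8 against 121.7 to 187.1 CPM). The falls of Tef (-0.32), Nr1d1 (-0.37), Per3 (-0.33), Per1 (-0.63), Cry2 (-0.13) and Nr1d2 (-0.15) were close to those of Q175. Per2 passed here, at -0.66 (SE 0.212, adjusted p = 0.0125). By the number in the library names, described further on, Q140 libraries held ranks 1, 3, 5 and 7 in each sex and Q20 libraries ranks 2, 4, 6 and 8. Per2 and Per1 rose by 0.156 and 0.077 log2 per rank, and the falls in Q140 are given without the rank in the fit. In Q111, 3 members fell among 7.45% of genes, namely Dbp (-0.28, adjusted p = 0.00422), Tef (-0.13, adjusted p = 0.022) and Nr1d1 (-0.16, adjusted p = 0.0496). In Q92 Clock was the single call, lower by a log2 difference of -0.10 (SE 0.0286, adjusted p = 0.0289) among 2.99% of genes. In Q80 the single call was Tef (-0.19, SE 0.0399, adjusted p = 0.00958), among 0.085% of genes. The 5 comparisons share their Q20 libraries.

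**Figure D2:**
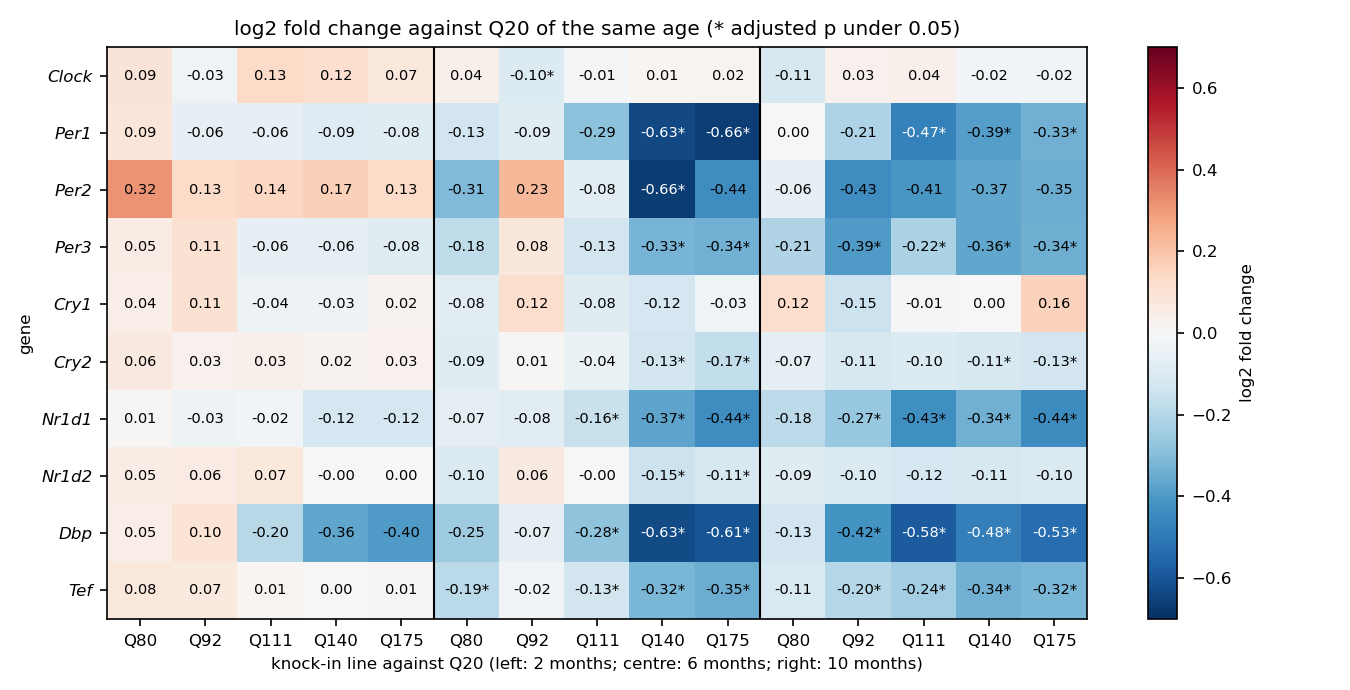
Heat map of the log2 difference from Q20 for the 10 genes in each of the 5 longer lines at 2, 6 and 10 months; asterisks mark an adjusted p below 0.05. Dbp, Tef, Nr1d1, Per1 and Per3 are marked in Q175 and Q140 at 6 and 10 months, and no cell is marked at 2 months.

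At 10 months members fell in 4 of the 5 longer lines. In Q175, 6 members fell (12.1% of 17170 genes fell), in Q140 6 (11.6%), in Q111 5 (6.9%) and in Q92 4 (0.78%), while none was called in Q80 (0.122% of genes in either direction). In Q175, Q140 and Q111, 24.5%, 22.5% and 12.5% of genes were called in either direction, and the share without overlap is not given here. For Nr1d1, 7 of 8 libraries of Q80, where it was not called, and 7 of 8 of Q92 lay below the lowest of Q20. Nr1d1 separated Q175, Q140 and Q111 from Q20 without overlap. It had 69.2, 75.8 and 84.0 CPM in Q175, 70.4, 82.2 and 90.3 CPM in Q140 and 67.1, 75.2 and 84.2 CPM in Q111, against 93.7, 99.3 and 119.3 CPM in Q20. The log2 differences were -0.44 (SE 0.0559) in Q175, -0.34 (SE 0.056) in Q140 and -0.43 (SE 0.0559) in Q111, with adjusted p of 1.47e-08, 6.68e-06 and 4.8e-08.

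Dbp at 10 months had 66.5, 84.0 and 101.3 CPM in Q175 and 64.0, 86.1 and 109.1 CPM in Q111, against 108.7, 127.8 and 137.3 CPM in Q20. Q175 did not overlap Q20 and Q111 overlapped it with its highest library alone, with log2 differences of -0.53 (SE 0.0776, adjusted p = 3.56e-07) and -0.58 (SE 0.0776, adjusted p = 1.09e-07). In Q92 Dbp still fell by 0.42 on the log2 scale (adjusted p = 0.00119), beside Per3 (-0.39, adjusted p = 0.00157), Nr1d1 (-0.27, adjusted p = 0.00461) and Tef (-0.20, adjusted p = 0.00821). Tef had 351.3, 381.4 and 425.5 CPM in Q175 against 435.6, 493.7 and 509.8 CPM in Q20, with no overlap (log2 difference -0.32, adjusted p = 8.47e-08). Per1 fell by 0.33 in Q175, 0.39 in Q140 and 0.47 in Q111 on that scale, with adjusted p of 0.0163, 0.00613 and 0.00123. Cry2 fell in Q175 (-0.13, adjusted p = 0.00331) and Q140 (-0.11, adjusted p = 0.0142). Per2 did not pass in any line, with log2 differences from -0.43 in Q92 to -0.06 in Q80. Cry1 had a positive difference in Q175 (0.16, SE 0.0755, adjusted p = 0.107), with 20.6, 26.8 and 32.3 CPM in Q175 against 18.8, 23.9 and 31.2 CPM in Q20. It was called in 2 of 16 fits that left out 1 library.

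At 2 months no member was called in any line against Q20. The background was equally low, with 0.218% of 17006 genes called in Q175, 0.0176% in Q111, 0.0118% in Q80 and 0% in Q140 and in Q92 (at an unadjusted p under 0.05, 967 genes in Q175, 857 in Q111, 597 in Q80 and 216 in Q92). Dbp had the largest difference in Q175, with 77.3, 112.4 and 138.6 CPM against 113.2, 140.2 and 197.5 CPM in Q20 (log2 difference -0.40, SE 0.135, adjusted p = 0.452). Both Q20 libraries of low correlation had high Dbp, and without the 5 libraries the difference was -0.19 (SE 0.08, adjusted p = 0.508). Again no member was called in any line without them, and 0.322% of 17055 genes were called in Q175. The Q175 effects at the 2 later ages were set against that of 2 months in a fit over all libraries of the 3 ages. From 2 to 6 months, 4 members became more negative, among 4.42% of 17863 genes, namely Tef (-0.35, adjusted p = 0.000182), Nr1d1 (-0.32, adjusted p = 0.00475), Cry2 (-0.20, adjusted p = 0.00932) and Per1 (-0.58, adjusted p = 0.0436). From 2 to 10 months Tef (-0.33), Nr1d1 (-0.32) and Cry2 (-0.17) did so, among 4.07% of genes. For Dbp the difference of effects was -0.20 (SE 0.137, adjusted p = 0.375) at 6 months. Both ages share the 2-month libraries, so the fit was repeated without the 5 of low correlation. From 2 to 6 months the members called were then Tef (-0.27, adjusted p = 0.00138), Dbp (-0.41, adjusted p = 0.0118), Nr1d1 (-0.27, adjusted p = 0.0225) and Cry2 (-0.15, adjusted p = 0.0347), among 8.66% of 17960 genes called in either direction, and Per1 was not called (-0.46, SE 0.20, adjusted p = 0.128). From 2 to 10 months they were Tef (-0.24, adjusted p = 0.00822) and Nr1d1 (-0.27, adjusted p = 0.0404), among 4.4% of genes, and Cry2 was not called (-0.12, SE 0.05, adjusted p = 0.18). Between 6 and 10 months no member was called, and 0.0112% of genes were (975 genes at an unadjusted p under 0.05).

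The wild types housed with each line gave a second reference at 6 months, drawn from the line's own cohort. Against it, 6 members fell in Q175, among 16.1% of genes. Dbp had 65.9, 102.1 and 128.1 CPM in Q175 against 109.3, 150.6 and 170.6 CPM in its wild types (log2 difference -0.54, SE 0.074, adjusted p = 4.75e-09). Tef (-0.28, adjusted p = 8.96e-09), Per3 (-0.31, adjusted p = 4.37e-07), Nr1d1 (-0.23, adjusted p = 0.000587) and Per1 (-0.44, adjusted p = 0.0121) fell as well. Cry2 (-0.09, adjusted p = 0.0216) kept its call in 13 of 16 fits that left out 1 library, and lost it without Q175 male 1 or wild-type female 1 or 3. In Q140, 5 members fell among 11.7% of genes, namely Dbp (-0.46), Tef (-0.22), Per3 (-0.26), Nr1d1 (-0.25) and Per1 (-0.45, adjusted p = 0.015). In Q111 Dbp alone fell (-0.30, adjusted p = 0.00271), among 4.66% of genes.

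In Q92, Q80 and Q20 no member was called against the line's own wild types. For Q92 and Q80, 0.051% of genes were called in each, and for Q20 0.0227% (849, 681 and 898 genes at an unadjusted p under 0.05). Q20 also gave no member call against its wild types at 2 months (0% of genes called, 404 at an unadjusted p under 0.05, and 1003 without the 5 libraries of low correlation, again with no gene called) or at 10 months (0.0116%). Dbp in Q20 and its wild types at 6 months had a log2 difference of 0.00 (SE 0.0737). At 10 months it had 126.2 ± 8.53 CPM in Q20 and 132.6 ± 10.3 CPM in the wild types (SD, n = 8 each).

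Taking the Q20 effect off each line's own effect tests whether the line differs from its wild types more than Q20 does. By that test 5 members were lower in Q175, among 12.8% of genes: Tef (-0.34, SE 0.0564, adjusted p = 1.02e-06), Dbp (-0.54, SE 0.104, adjusted p = 3.28e-05), Per3 (-0.34, SE 0.0717, adjusted p = 0.000104), Cry2 (-0.13, SE 0.0465, adjusted p = 0.0355) and Per1 (-0.52, SE 0.202, adjusted p = 0.0487). Nr1d1, with -0.19 (SE 0.0789, adjusted p = 0.0705), did not pass. In Q140, 3 members passed among 8.25% of genes, namely Dbp (-0.46), Tef (-0.28) and Per3 (-0.30). None passed in Q111 (3.06% of genes called in either direction; 2414 at an unadjusted p under 0.05), nor in Q92 or Q80 (0% each; 1302 and 763 at an unadjusted p under 0.05). The value for Dbp in Q111 was -0.30 (SE 0.104, adjusted p = 0.0944).

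Wild types lack the knock-in allele, so the 6 wild-type groups of 6 months show how far cohorts differ without it. Among them Clock (adjusted p = 0.0132) and Nr1d1 (adjusted p = 0.0223) differed, in a test over all 6 groups that called 1.34% of genes. Clock was lowest in the wild types housed with Q92, at 70.5 ± 2.46 CPM, and highest in those housed with Q175, at 78.0 ± 4.77 CPM (SD, n = 8 each). The Q92 line itself averaged 69.8 ± 5.91 CPM. Nr1d1 was lowest in the wild types of Q175, at 112.1 ± 7.27 CPM, and highest in those of Q20, at 133.2 ± 12.5 CPM. The fall of Nr1d1 in Q175 was 0.23 on the log2 scale against those wild types, and 0.44 against Q20. Neither call was made when the L code of the library names was added to the fit.

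Over the 6 knock-in lines, a linear trend with repeat length was negative for 8 of the 10 members at 6 months, among 19.6% of 17370 genes. Dbp fell by 0.04 per 10 repeats on the log2 scale (SE 0.00525, adjusted p = 1.91e-09), Per1 by 0.05 (SE 0.00768, adjusted p = 1.05e-06) and Nr1d1 by 0.03 (SE 0.0037, adjusted p = 1.81e-09). Clock (adjusted p = 0.659) and Cry1 (adjusted p = 0.596) did not pass. At 10 months the trend was also negative for 8 members, among 16.9% of 17108 genes, with Tef at -0.02 (SE 0.00257, adjusted p = 4.25e-10) and Nr1d1 at -0.03 (SE 0.00369, adjusted p = 1.73e-08). That count depended on Q20. Without that line Tef (adjusted p = 8.67e-05), Nr1d1 (adjusted p = 0.00238) and Dbp (adjusted p = 0.00933) passed, among 27.9% of 17037 genes that passed in either direction. At 2 months no member passed, while 0.354% of genes did (1574 at an unadjusted p under 0.05). Without the 5 libraries of low correlation Nr1d1 passed at 2 months (-0.01, adjusted p = 0.0348), among 0.8% of 16999 genes.

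Other genes of the clock changed in part with the members. Of 10 partner transcription factors, 5 fell in Q175 against Q20 at 6 months and none rose (median log2 difference -0.18), where 18.2% of all genes fell. Ciart, a repressor of CLOCK–BMAL1, fell most (-0.90, SE 0.126, adjusted p = 6.07e-09), followed by Npas2, the CLOCK paralogue of the forebrain (-0.58, adjusted p = 1.68e-12), Bhlhe40 (-0.44, adjusted p = 0.000604) and the PAR bZIP gene Hlf (-0.41, adjusted p = 2.55e-08). Npas2 (-0.64), Ciart (-0.52), Hlf (-0.37) and Arntl (-0.24, adjusted p = 0.01) fell against the line's own wild types, and Npas2 (-0.55), Ciart (-0.64), Hlf (-0.31) and Bhlhe41 (-0.20) against Q20 at 10 months. Of 10 kinases and turnover factors of clock proteins, 1 rose and 4 fell at 6 months, where 36.2% of all genes were called in either direction. Neither list was tested against these shares. Csnk1d, the casein kinase that phosphorylates PER, rose by 0.09 (adjusted p = 0.000136), and Fbxl21, whose product binds CRY, fell by 0.43 (adjusted p = 1.02e-08). Gsk3b, a kinase, fell by 0.35 (adjusted p = 2.16e-17), and the deubiquitinase gene Usp2 by 0.30 (adjusted p = 1.4e-05).

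Some markers of cell types and of neuronal activity moved in the same comparison, in which 18.2% of all genes fell at 6 months and 12.1% at 10 months. Of 8 medium spiny neuron markers, 7 fell in Q175 against Q20 at 6 months, and their summed level was 3706 to 4302 CPM in Q175 against 6587 to 7745 CPM in Q20. At 10 months 7 of 8 fell too, with sums of 2684 to 3584 CPM in Q175 against 4371 to 6096 CPM in Q20. In tissue RNA fewer cells of a type cannot be told apart from less RNA per cell. Of 10 immediate early genes, which neuronal activity induces, 7 fell at 6 months, with sums of 376.7 to 568.8 CPM in Q175 against 607.5 to 1067 CPM in Q20, and 1 fell at 10 months. Egr2 had the largest fall (-2.11, SE 0.363, adjusted p = 1.41e-06). Of 8 glucocorticoid-induced genes, 1 fell (Klf9, -0.22, adjusted p = 0.0387), and the sums overlapped, with lowest values of 342.1 CPM in Q175 and 382.7 CPM in Q20. Of 3 markers each, 2 of endothelium, 2 of microglia and 1 of oligodendrocytes fell at 6 months, and none of 3 of astrocytes. No marker of cortex, choroid plexus or hypothalamus was called at that age. The part of these genes in the fall of the clock genes was not tested.

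Levels of 4 to 7 members were higher in females than in males at each age. At 6 months 7 members were higher in females, among 9.81% of genes, and Clock was lower (-0.09, adjusted p = 1.27e-08), among 8.73%. Per3 averaged 85.2 ± 9.38 CPM in females and 69.4 ± 8.59 CPM in males (SD, n = 48 each), was higher in females in 12 of 12 groups, and had a log2 difference of 0.29 (adjusted p = 3.14e-21). Tef averaged 536.8 ± 48.2 CPM in females and 469.1 ± 44.7 CPM in males and was higher in 12 of 12 groups (0.19, adjusted p = 6.41e-17). Dbp averaged 147.2 ± 20.6 CPM in females and 120.2 ± 23.9 CPM in males, again in 12 of 12 groups (0.30, adjusted p = 3.45e-13). Nr1d2 (0.16), Nr1d1 (0.11), Cry2 (0.07) and Per2 (0.26, adjusted p = 0.0266) completed the list.

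At 2 months 5 members were higher in females, among 0.629% of genes, led by Per3 at 74.5 ± 8.79 CPM in 27 females and 60.3 ± 8.91 CPM in 29 males (0.31, adjusted p = 0.000163). Tef (0.20), Nr1d1 (0.16), Nr1d2 (0.15) and Cry2 (0.11) were the others. The 5 libraries of low correlation were all male. Without them 4.06% of 17055 genes were called in either direction, and the 5 members were called again, with Per3 at 0.23 (SE 0.04, adjusted p = 0.000141), Tef at 0.14 (SE 0.03, adjusted p = 0.000512), Nr1d2 at 0.14 (SE 0.03, adjusted p = 0.0013), Nr1d1 at 0.13 (SE 0.03, adjusted p = 0.00308) and Cry2 at 0.07 (SE 0.02, adjusted p = 0.0309). Dbp was not called with all libraries (0.24, adjusted p = 0.106) and was called without the 5 (0.39, SE 0.04, adjusted p = 4.83e-09), and Clock was then lower in females (-0.17, SE 0.05, adjusted p = 0.036). At 10 months 4 members were higher in females, among 0.944% of genes, namely Per3 (0.27, adjusted p = 1.27e-05), Tef (0.12), Dbp (0.19) and Nr1d2 (0.10, adjusted p = 0.0267). The test of a difference in the Q175 effect between the sexes called no gene, member or not, at any age (edgeR, 0.0% of genes; 1180, 993 and 727 genes at an unadjusted p under 0.05 at 2, 6 and 10 months). In wild types alone, 7 members were called between the sexes at 6 months, among 8.47% of 16769 genes. None was called at 2 or 10 months, where 8 wild types were available and 0.043% and 0.0487% of genes were called (2062 and 333 at an unadjusted p under 0.05). The sexes carried different name codes at 2 and 10 months, and at 6 months the numbers of the males came before those of the females in every cohort, so sex and this order cannot be told apart. A Q80 male of 2 months with the females' code had Per3 at 81.5 CPM. A Q20 female of 10 months with the males' code had 78.8 CPM, and a Q20 male with that code had 77.6 CPM. These single libraries do not tell sex and code apart.

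**Figure D3:**
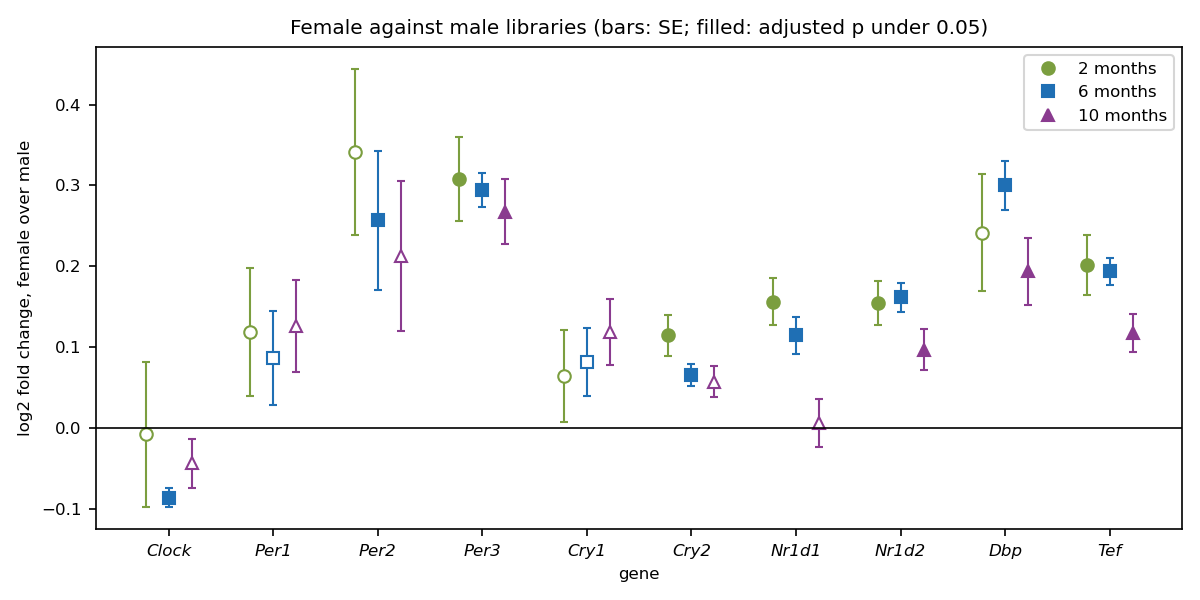
Log2 difference of females from males for each gene at 2, 6 and 10 months, with its SE; filled points have an adjusted p below 0.05. Per3, Tef and Nr1d2 are filled and above 0 at all 3 ages, and Clock is filled below 0 at 6 months.

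Spread between libraries of a group differed widely between members. The residual SD of log2 CPM, after group and sex, was largest for Per2, at 0.40, 0.43 and 0.35 at 2, 6 and 10 months. These values lay at percentiles 87.8, 97.5 and 95 of 14474, 14536 and 14545 expressed genes, whose median SD was 0.20, 0.10 and 0.12. Per1 followed at 6 months, at 0.29 (percentile 93.6), and Cry1 at 0.21 (percentile 84.8). Cry2 stood at the other end, at 0.09, 0.07 and 0.07 (percentiles 10.6, 22 and 9.3). Clock had an SD of 0.06 at 6 months (percentile 12.9) and 0.36 at 2 months, where the 5 libraries of low correlation were the lowest.

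Much of the spread of Per2, Cry1 and Per1 at 6 months followed a number in the library names. At that age the names of each cohort carry a running number, males before females, in which wild types and knock-ins alternate, giving 12 sequences of 8 libraries. What the number stands for is not in the labels, and its rank from 1 to 8 within cohort and sex was used here. Per2 had median values over the 12 sequences of 48.3, 45.9, 52.4, 64.0, 76.1, 78.6, 92.2 and 98.0 CPM from rank 1 to rank 8. The mean of the last 2 libraries was above that of the first 2 in 12 of 12 sequences, by a ratio of 1.54 to 2.52. Cry1 had medians of 19.6, 19.9, 20.7, 22.3, 23.4, 24.2, 26.1 and 25.8 CPM, with ratios of 1.12 to 1.54 in 12 of 12 sequences. Per1 rose up to rank 5 and then declined in part. Its medians were 117, 123, 158, 176, 191, 177, 172 and 164 CPM, with ratios of 1.03 to 1.83 in 12 of 12. Nr1d1 had ratios of 0.86 to 1.20 and was higher at the end in 4 of 12, so it did not share the pattern.

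Fitted across all genes as a linear term, the rank had a positive slope for 6 members, among 18.5% of genes. Such a term does not describe the decline of Per1 at the later ranks. The log2 difference over ranks 1 to 8 was 1.09 for Per2 (SE 0.06, adjusted p = 4.08e-25), 0.54 for Per1 (SE 0.07, adjusted p = 4.65e-09), 0.45 for Cry1 (SE 0.04, adjusted p = 2.83e-14), 0.14 for Nr1d2 and Dbp, and 0.07 for Cry2. Per3, Tef, Clock and Nr1d1 did not pass. Over the 96 libraries the rank and residual level of Per2 had a Pearson r of 0.903 and a Spearman rho of 0.905 (r = 0.901 without the 2 libraries farthest from the median). For Cry1 they were 0.772 and 0.791, and for Per1 0.667 and 0.65. The adjusted permutation p was 7.5e-05 for each of these, from the smallest p that 100000 shuffles within cohort and sex can give, in a family of 30 tests. At 2 and 10 months numbers run within other codes, and no member passed by Pearson's r. By rank, Cry1 passed at 2 months, with the opposite sign (rho = -0.443, adjusted permutation p = 0.0146).

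**Figure D4:**
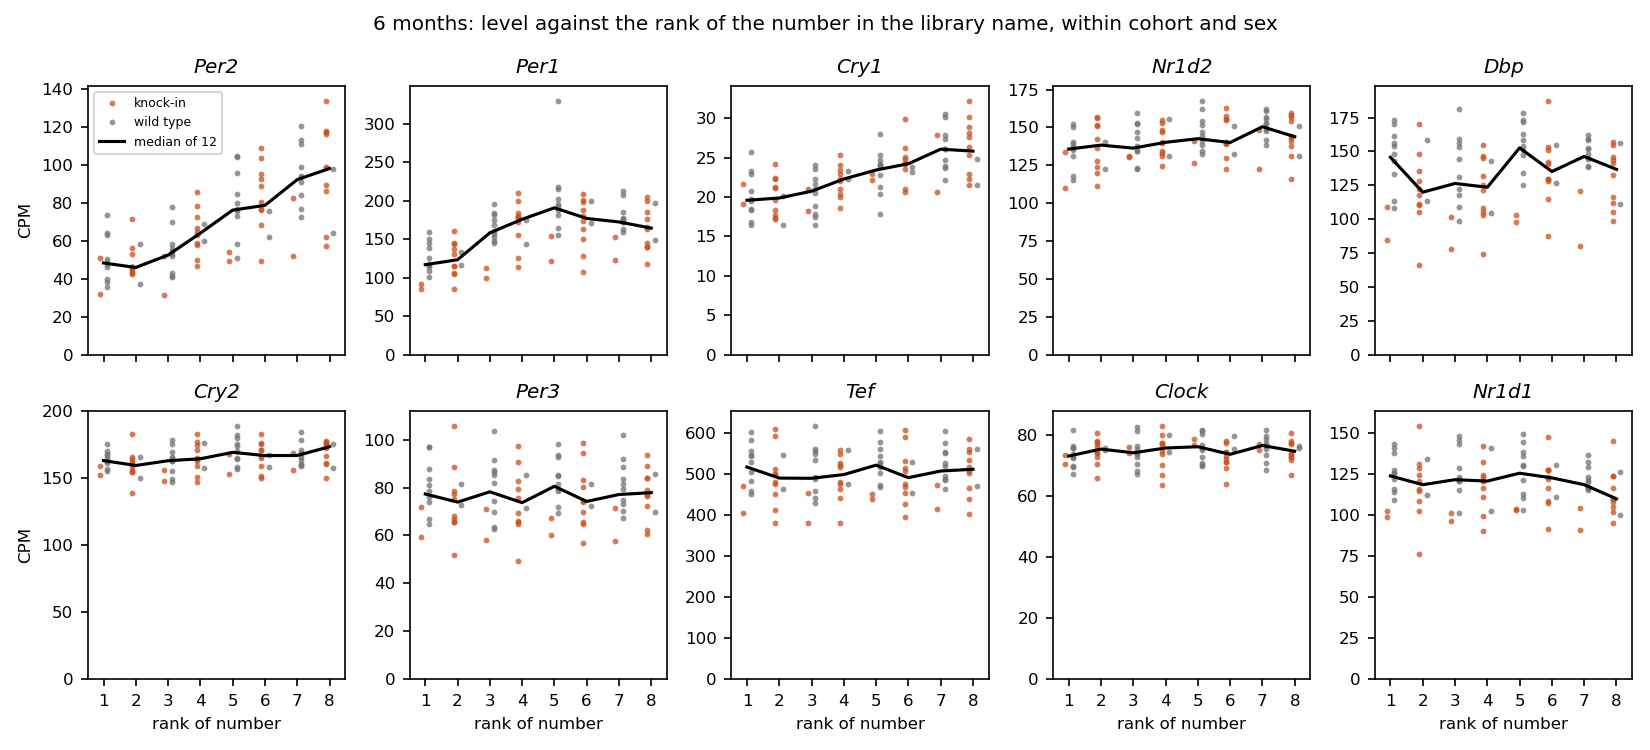
CPM of each of the 10 genes in the 96 libraries of 6 months against the rank of the number in the library name within cohort and sex, with knock-in and wild-type libraries as separate dots and the median of 12 libraries at each rank as a line. The line for Per2 runs from 48.3 CPM at rank 1 to 98.0 CPM at rank 8, and that for Clock stays between 73.2 and 76.6 CPM.

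Genes that respond to hormone and activity moved with the same rank, for which 18.5% of all genes had a positive slope. Of 8 glucocorticoid-induced genes, 8 had a positive slope, led by Plin4 (1.46 over ranks 1 to 8, SE 0.17) and Sgk1 (1.43, SE 0.11), with Zbtb16 at 1.05 and Tsc22d3 at 0.73. Of 10 immediate early genes 5 did, led by Egr2 (0.99) and Egr1 (0.83), and of 10 clock partners 5, led by Bhlhe40 (0.39) and Bhlhe41 (0.27). Arntl had a slope of 0.19 (SE 0.05, adjusted p = 0.000356). Of 5 genes that respond to temperature, 2 had a positive and 1 a negative slope. Cirbp, a cold-induced RNA-binding protein gene, had a negative slope (-0.38, SE 0.05), and the heat shock genes Hsph1 (0.26) and Hspa8 (0.21) positive ones. Cold-induced Rbm3 (-0.06, adjusted p = 0.308) and heat-induced Hsp90aa1 (0.08, adjusted p = 0.0531) did not pass. Among 8 medium spiny neuron markers 3 had a positive and 1 a negative slope. The part of these genes in the slopes of the members was not tested.

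Adding the rank as a covariate narrowed the error of the members that follow it. The Q175 difference from Q20 for Per2 was then -0.39 (SE 0.10, adjusted p = 0.000866), where it had been -0.44 (SE 0.211), and 8 members were called, with 38.2% of genes called in either direction. Against the line's own wild types 9 members were called (34.9% of genes), now with Per2 (-0.51, SE 0.10), Cry1 (-0.20, SE 0.07) and Nr1d2 (-0.11, SE 0.04). Knock-ins held ranks 2, 4, 6 and 8 in each sex of this cohort and wild types ranks 1, 3, 5 and 7. In the Q140 cohort alone these ranks were the other way round. For the Q175 effect with the Q20 effect taken off, 7 members were called (25.8% of genes), again with Per2 (-0.64) and Cry1 (-0.27). Among the wild types 6 members then differed between cohorts (3.34% of genes). This covariate was chosen after the values had been seen.

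Members varied together between libraries of the same group and sex. Over 56, 96 and 56 libraries at 2, 6 and 10 months, 32 of 45 pairs passed at 2 months (25 without the 5 libraries of low correlation), 31 at 6 months and 21 at 10 months, by permutation within groups and adjustment over the pairs of all 3 ages. No share over pairs of other genes is given beside these counts, so they do not set the members apart. At 6 months 37.2% of all genes followed the rank of the name number. Per2 and Cry1 moved together at each age, with a Pearson r of 0.747, 0.894 and 0.808 and a Spearman rho of 0.797, 0.901 and 0.802 at 2, 6 and 10 months (adjusted permutation p = 4.82e-05 and 6.43e-05 at each age). Leaving out the 2 libraries farthest from the median gave r of 0.724, 0.883 and 0.805, and r at 2 months was 0.82 without the 5 libraries. With the rank of the name number taken out at 6 months, r for this pair was 0.759.

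Per3 and Tef formed the other close pair, with r of 0.924, 0.733 and 0.705 and rho of 0.838, 0.632 and 0.63 (r = 0.861 at 2 months without the 5 libraries), and r of 0.898, 0.648 and 0.654 without the 2 farthest libraries. Cry2 went with Tef, at r of 0.866, 0.755 and 0.604 and rho of 0.845, 0.707 and 0.583. At 2 months these values are over all 56 libraries, and the 5 of low correlation had the lowest Cry2 and Tef. Dbp went with Nr1d1 at 6 months (r = 0.551, rho = 0.515) and 10 months (r = 0.606, rho = 0.592). Dbp and Tef had r of 0.66 and 0.571 and rho of 0.599 and 0.579 at these ages. At 2 months their r was -0.566 (rho = -0.211) over 56 libraries and -0.11 (rho = 0.044) without the 5, so the negative value rested on those libraries. Clock and Dbp ran opposite at 2 months (r = -0.897, rho = -0.77, and r = -0.788 without the 5) and at 10 months (r = -0.549, rho = -0.564), and did not pass at 6 months (r = -0.214, adjusted permutation p = 0.0957), though they did with the rank of the name number taken out (r = -0.285, adjusted permutation p = 0.0265). Outside the 5, other libraries of 2 months also had low Clock beside high Dbp, such as a wild-type female (46.6 and 188.8 CPM) and a Q111 female (48.4 and 177.9 CPM). At 10 months a Q140 female (60.5 and 115.6 CPM) and a wild-type female (57.6 and 145.9 CPM) were alike. How far r rests on such libraries was not tested. Per1 and Per2 had r of 0.652 (over all 56 libraries of 2 months), 0.612 and 0.433 and rho of 0.605, 0.613 and 0.37, but with the rank taken out at 6 months r was 0.112 (adjusted permutation p = 0.366).

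**Figure D5:**
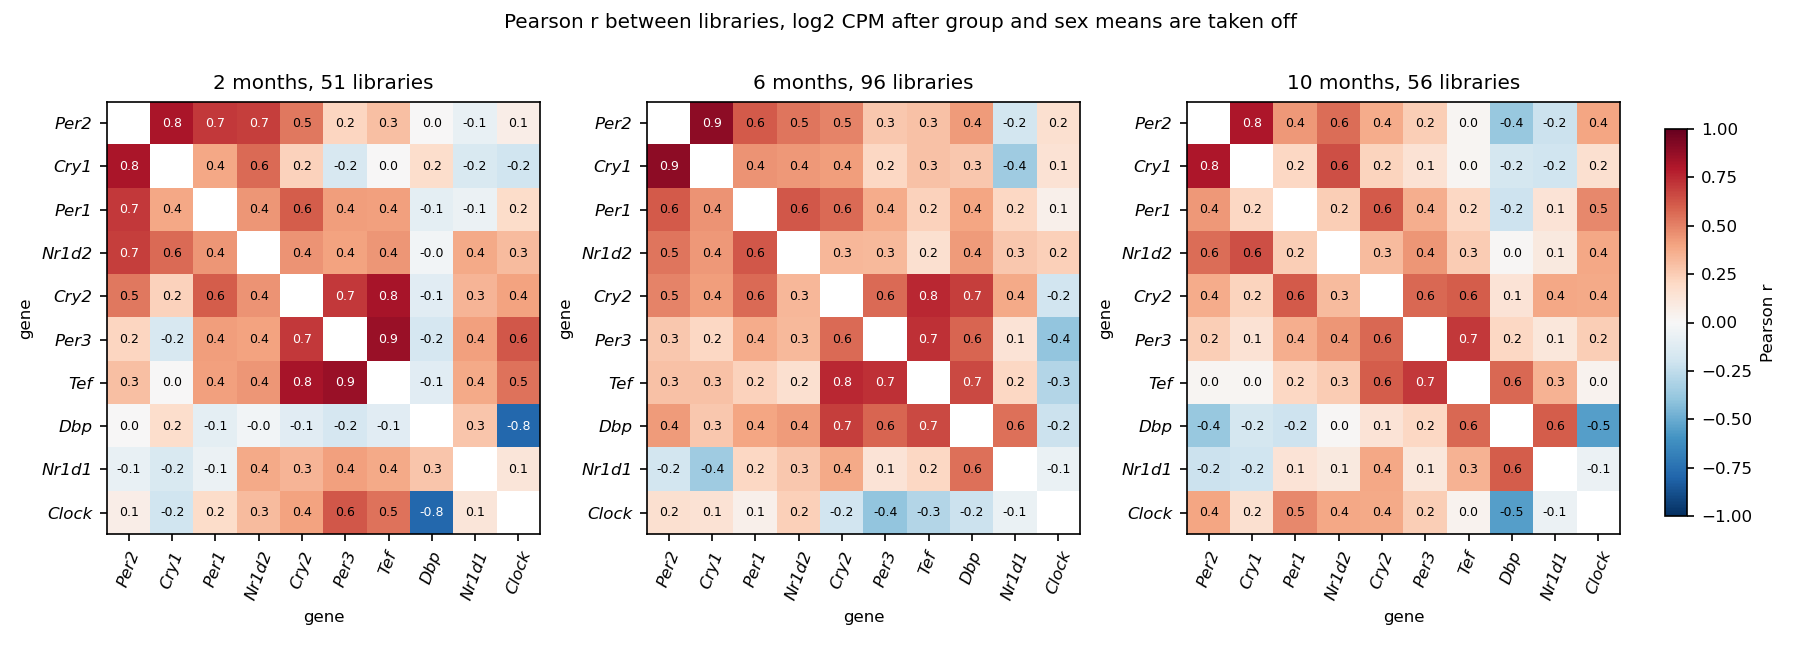
Pearson r between the residual log2 CPM of each pair of genes at 2 months (51 libraries), 6 months (96) and 10 months (56), on a colour scale from -1 to 1. The pairs Per2 with Cry1 and Per3 with Tef have r above 0.7 at every age.

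Some partners of the clock outside the 10 genes varied with or against a member in the same direction at each age. Arntl, whose product drives E-boxes and which REV-ERB represses, went with Cry1 at each age (r = 0.539, 0.598 and 0.414, rho = 0.528, 0.601 and 0.387) and against Per3 (r = -0.367, -0.363 and -0.552, rho = -0.398, -0.281 and -0.52). Nfil3, the D-box repressor, went against Tef (r = -0.706, -0.432 and -0.642, rho = -0.647, -0.458 and -0.639), and Hlf went with Nr1d2 (r = 0.709, 0.76 and 0.716, rho = 0.701, 0.737 and 0.703). Each passed at each age, with p adjusted over 300 such tests (largest adjusted permutation p = 0.0309). The values of 2 months are over all 56 libraries, with the 5 of low correlation kept. No hour of collection is known, so the correlations describe which transcripts vary together and give no phase in hours.

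Among 14536 genes at 6 months, those most like each member in residual level over 96 libraries differed between members. They are given as description without a test. The residuals had group and sex taken off but not the rank of the name number, which 37.2% of all genes followed. Per2 was closest to Spred2 (r = 0.949), Trak1 (0.923) and Gpt2 (0.92), and Cry1 to Per2 itself, Spred1 (0.874) and Srpk1 (0.868). Per1 was closest to Coq10b (0.943), Slc25a25 (0.94) and Dusp6 (0.915), none of them a gene of the fixed clock lists. Per3 was closest to Tef (0.733), Ciart (0.667) and Dbp (0.579), and Nr1d2 to Hlf (0.76), Bhlhe41 (0.721) and Pdp1 (0.721). All of these neighbours except Pdp1 were genes of the clock lists. Dbp was closest to Trnp1 (0.775) and Bhlhe41 (0.734), and Nr1d1 to Gpr146 (0.612) and Ciart (0.572). Tef was closest to Camkv (0.853), Fbxl16 (0.839) and Kcnt1 (0.838), Cry2 to Acap3 (0.772), and Clock to Usp9x (0.703). Lrrcc1 was the most opposite to Per2 (r = -0.867), and Fam149a to Tef (-0.734).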

How the data were processed

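The deposited files hold expected counts and FPKM per gene and library, made by the authors. CASAVA 1.8.2 is named per the submitters' processing notes, while for the aligner, annotation, genome build and counting strand the sources used here give nothing. The deposited expected counts were not whole in 32.7% of values above 0 and were rounded. The deposited FPKM values, length-scaled by the authors, were used for levels between genes and, as log2(FPKM + 1), in limma. Gene names for 37607 of 39179 identifiers came from GENCODE M21. Promoter windows came from RefSeq.

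Counts were fitted in edgeR 4.0.16 (R 4.3.3): filterByExpr (min.count 10, min.total.count 15), TMM scaling, robust quasi-likelihood test, group and sex, 1 fit per age (n = 8 a group), Benjamini-Hochberg adjustment over all genes tested. CPM are TMM-scaled. DESeq2 1.42.0 and limma 3.58.1 served as alternatives, beside RLE scaling, no filter, a replicate block, the L code of the library names, fewer groups, left-out libraries and other trend scales. Correlations used residual log2 CPM (prior count 1) and permutation within groups (numpy 2.4.6, scipy 1.17.1). Scripts were tested on simulated data. P-values measure the spread between these libraries, since the labels do not say that each is a separate animal. The main fits did not pair libraries by replicate number. In none of 23 comparisons did every same-numbered pair correlate above 0.1. At 6 months, however, replicate numbers follow the order of the name number within each group and sex. Same-numbered libraries of Q111 and its wild types then had a median r of 0.241, with 7 of 8 above 0.1, against -0.063 for other pairs. For Q140 and Q20, the lowest of that age, the medians were -0.01 and -0.019.

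The members, lists and tests were chosen with earlier results of these data known. Genes named were the 10 members, up to 4 called genes of each list with the largest change, and the 3 genes with the highest or lowest r to a member; other single values were chosen after they were seen.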

Additional observations from a re-analysis of the deposited data

Results flagged for a closer look

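In 15 of 260 sets of 8 libraries (5.77%), 1 library stood apart from the other 7 by Dixon's test at the 95% level, where chance gives about 1 in 20; 8 were high and 7 low. Clock had 6 of them. Low values of Clock were 48.4 CPM in a Q111 female of 2 months (others 72.1 to 86.3), 50.6 CPM in a Q140 female of 2 months (others 73.2 to 84.4), 32.9 CPM in a Q80 male of 2 months (others 71.1 to 85.0), 60.5 CPM in a Q140 female of 10 months (others 73.1 to 84.2) and 57.6 CPM in a wild-type female of 10 months (others 73.1 to 84.1). The high value was 81.4 CPM in a wild-type male housed with Q80 at 6 months (others 73.5 to 75.8).

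The same Q80 male of 2 months had 247.8 CPM of Dbp (others 103.4 to 167.9), and is 1 of the 5 libraries of low correlation. The Q140 female of 10 months with low Clock had 115.6 CPM of Dbp (others 78.1 to 93.3). Dbp was low in a Q92 male of 6 months, at 105.4 CPM (others 142.5 to 153.3). Per1 reached 329.6 CPM in a wild-type male housed with Q80 (others 108.6 to 207.3). Per2 reached 82.2 CPM in a Q140 female of 6 months (others 31.4 to 53.9) and 108.8 CPM in a Q175 female of 2 months (others 35.6 to 69.2). Cry1 was at 27.8 CPM in a wild-type female housed with Q80 at 6 months (others 17.4 to 22.1). Nr1d2 was at 187.2 CPM in a Q140 female of 10 months (others 148.1 to 165.5), and Tef at 435.6 CPM in a Q20 male of 10 months (others 483.7 to 509.8).

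Effects that differed between ages by the test of the difference itself were those of Q175 at 6 against 2 months for Tef (-0.35), Nr1d1 (-0.32), Cry2 (-0.20) and Per1 (-0.58), and at 10 against 2 months for Tef (-0.33), Nr1d1 (-0.32) and Cry2 (-0.17), all as log2 differences of effects. Without the 5 libraries of low correlation the calls of Per1 at 6 months (-0.46, adjusted p = 0.128) and of Cry2 at 10 months (-0.12, adjusted p = 0.18) were lost. Line effects that differed from the Q20 effect at 6 months were those of Q175 for Tef (-0.34), Dbp (-0.54), Per3 (-0.34), Cry2 (-0.13) and Per1 (-0.52), and those of Q140 for Dbp (-0.46), Tef (-0.28) and Per3 (-0.30).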

How the results depend on the processing

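Of 183 alternative values for 25 counts of called members, 169 stayed within 1.5 times the reported count, and no call reversed its sign. Of 1004 alternative values for 101 calls of single members, 943 kept the call and 61 lost it, in 30 of the calls. The replicate block used sex and replicate number, which at 6 months followed the name number. With it, line effects differing from the Q20 effect gave 13 calls, against 8 reported, and wild-type cohorts gave 6, against 2. No other count moved past 1.5 times with this block. The wild-type count was also 4 on FPKM, 0 with the L code of the library names and 6 with the rank of the name number. In wild types alone 7 of the 17 sex calls were made, with 0 at 2 months and 0 at 10 months, and FPKM gave 3 of 5 at 2 months. The trend at 2 months, with 0 calls, gave 1 with DESeq2, 1 without the libraries of low correlation, 1 by rank of line and 1 without Q20. The trend at 10 months gave 3 calls without Q20, against 8. The causes were not tested. Leaving out each library in turn gave 0 to 0 calls for Q175 against Q20 at 2 months, 6 to 8 at 6 months and 6 to 7 at 10 months, and 5 to 7 against its own wild types. The Q175 effects between ages without the libraries of low correlation, the rank covariate, the sex alternatives, the left-out libraries of the own wild types and the changes to the correlations beyond FPKM and wild types were chosen after seeing the data. The lowest count of any member in a library was 491.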
